A study of Homo sapiens with 89 samples.

Results

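The PDLIM family, 7 genes of the 57905 in the count tables, encodes actin-associated adaptor proteins with an N-terminal PDZ domain and C-terminal LIM domains. The 7 members were taken by gene symbol and are PDLIM1, PDLIM2, PDLIM3, PDLIM4, PDLIM5, PDLIM7 and LDB3. PDLIM3 was selected on its counts in IMR-32, for their large rise on EXOSC10 depletion. It is therefore described in that comparison without a test. The other 6 came in as its relatives by name, but the members were chosen with earlier results of these data known. All 7 members passed the filter on low counts in IMR-32, and 6 of 7 passed it in SHEP, where LDB3 did not.

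Polyadenylated RNA was sequenced from 2 human neuroblastoma lines, in 15 libraries with 3 per group. IMR-32 is a line in which MYCN is amplified. Its cells expressed, on addition of doxycycline, a hairpin RNA that targets EXOSC10: the shEXOSC10 group received 1 µg/ml doxycycline and the control group received none. The count columns of the control group are headed EtOH (ethanol). EXOSC10 is the nuclear 3′-to-5′ exonuclease of the RNA exosome. SHEP, a line of mesenchymal character, expressed a doxycycline-inducible construct in the groups labelled MYCNwt (wild type MYCN) and MYCN3A (a triple mutant of MYCN that is deficient in RNA binding per the labels), each at 1 µg/ml, while the group labelled no MYCN had no construct switched on. The RNA-seq tables used here held no IMR-32 group with doxycycline and a control hairpin and no SHEP group with doxycycline alone, so the effect of doxycycline cannot be told apart from that of the hairpin, or from that of either construct against no MYCN. The time under doxycycline and whether replicates were separate cultures are not given in the sources used here, so the p-values measure the spread between these libraries, which may be technical.

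The deposited counts summed to between 16394148 and 26193478 per IMR-32 library and between 11638859 and 15353505 per SHEP library. Levels are given as CPM (counts scaled by TMM to a common library size), and as CPM per kb of exon where genes are compared with each other. EXOSC10 had 49.0, 46.7 and 46.1 CPM in shEXOSC10 libraries, against 74.6, 64.0 and 67.1 CPM in control libraries; it fell by 31.1% (edgeR log2 fold change -0.54, SE 0.08, adjusted p = 2.27e-08). MYCN itself averaged 599 ± 5.47 CPM in shEXOSC10 libraries and 1100 ± 15.3 CPM in control libraries (SD, n = 3 each). In SHEP the MYCN row held 2, 0 and 0 counts in the libraries labelled MYCNwt, 10, 0 and 0 in those labelled MYCN3A and 4, 0 and 0 in those labelled no MYCN, so it does not check these labels, and every SHEP direction below rests on the labels alone. Markers of the adrenergic neuroblastoma state summed to 1470 to 1520 CPM in shEXOSC10 libraries and 2340 to 2480 CPM in control libraries, against 70.0 to 87.7 CPM over all SHEP libraries, whereas mesenchymal markers summed to 823 to 856 CPM in shEXOSC10 libraries and 680 to 721 CPM in control libraries, against 5580 to 6830 CPM over all SHEP libraries. The SHEP sums rest largely on VIM (group means of 4150 to 5330 CPM) and, for the adrenergic list, on HAND2 (60.1 to 71.6 CPM). TWIST1 alone of the mesenchymal list averaged more in control IMR-32 (90.3 CPM) than in any SHEP group (74 to 86.2 CPM). The leukocyte markers summed to at most 0.68 CPM in any library.

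PDLIM proteins join actin filaments to other proteins: the PDZ domain of most members holds α-actinin, the crosslinker of stress fibres and of the muscle Z-disc, and the LIM domains bind kinases, receptors and transcription regulators. PDLIM3 (also called ALP) and LDB3 (also called ZASP or Cypher) are best known from the Z-discs of skeletal and cardiac muscle, and mutations in LDB3 cause myopathy. PDLIM1, PDLIM4 and PDLIM7 are found on stress fibres of many non-muscle cells, PDLIM5 anchors protein kinase C, and PDLIM2 acts in the nucleus on the turnover of transcription factors such as RELA.

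Promoters are shown for the members whose changes stand out below: PDLIM3 and LDB3, which moved in opposite directions on EXOSC10 depletion, and PDLIM5, the 1 member that was higher in the libraries labelled MYCNwt. RefSeq sequences on GRCh38.p14, from 250 bases before to 50 bases after the gene start, were at hand for 6 of the 7 members, PDLIM2 being the one without. Capitals mark GC boxes (GGGCGG, either strand) in PDLIM3 and PDLIM5 and a CArG box, the motif of serum response factor (SRF), in LDB3.
PDLIM3 promoter, chr4:185535458-185535757, minus strand: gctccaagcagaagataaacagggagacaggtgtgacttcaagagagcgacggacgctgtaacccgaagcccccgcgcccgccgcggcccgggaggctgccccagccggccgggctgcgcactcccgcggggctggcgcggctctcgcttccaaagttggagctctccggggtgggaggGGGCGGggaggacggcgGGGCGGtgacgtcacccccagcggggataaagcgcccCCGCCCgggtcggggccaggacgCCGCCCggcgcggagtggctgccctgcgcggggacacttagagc
LDB3 promoter, chr10:86668261-86668560, plus strand: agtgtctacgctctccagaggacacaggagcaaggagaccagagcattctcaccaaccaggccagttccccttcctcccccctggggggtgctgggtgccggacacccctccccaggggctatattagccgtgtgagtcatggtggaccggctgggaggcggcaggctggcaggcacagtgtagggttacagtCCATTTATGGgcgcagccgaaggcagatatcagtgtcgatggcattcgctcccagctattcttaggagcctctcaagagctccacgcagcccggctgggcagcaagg
PDLIM5 promoter, chr4:94451692-94451991, plus strand: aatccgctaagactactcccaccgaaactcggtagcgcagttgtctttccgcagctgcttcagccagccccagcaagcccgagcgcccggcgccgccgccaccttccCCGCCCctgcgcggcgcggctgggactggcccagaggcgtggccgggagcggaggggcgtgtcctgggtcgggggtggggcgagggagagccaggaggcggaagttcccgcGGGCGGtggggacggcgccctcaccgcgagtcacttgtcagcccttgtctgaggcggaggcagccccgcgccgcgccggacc
The PDLIM3 window held 4 GC boxes, 36 CG pairs and 74.0% G and C, and the PDLIM5 window 2 GC boxes, 36 CG pairs and 73.7% G and C. The LDB3 window differed from both: it had no GC box, 11 CG pairs and 61.7% G and C, with the CArG box starting 57 bases before the gene start. The RefSeq table has another LDB3 entry, which starts further downstream (window chr10:86668314-86668613); its window has 64.3% G and C and the same CArG box 110 bases before its start. Over 35116 promoters of the same length the medians were 14 CG pairs and 58.7% G and C, and 45% held a GC box but 1.29% a CArG box. The E-box CACGTG, the core sequence that MYCN binds together with MAX, was searched on both strands and was in none of the 3 windows, nor in those of PDLIM1, PDLIM4 and PDLIM7, against 7.26% of all promoters. The TATA motif TATAAA (11.5% of all promoters) and the MEF2 box (0.572%) were not in these windows either. A motif match or its absence in these windows is a description of the letters and says nothing of binding.

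PDLIM3 lies on the minus strand of chromosome 4, from 186422851 to 186456766 in hg19 (ENSG00000154553). It had 168, 163 and 161 CPM in shEXOSC10 libraries, against 7.05, 9.66 and 10.6 CPM in control libraries. All shEXOSC10 libraries stood far above all controls, and the spread within either group was small beside the gap. The means were 164 ± 3.76 CPM in shEXOSC10 and 9.09 ± 1.83 CPM in control libraries (SD, n = 3 each), an 18.0-fold difference (log2 fold change 4.17). Since this rise was the reason for choosing the gene, it is given as a description. In the order of log2 fold changes PDLIM3 was number 9 of 17103 tested genes. Among the tested genes that had a symbol and a mean log2 CPM of at least 3, PDLIM3 led. It stood ahead of NGFR, a neurotrophin receptor (4.05), and TMEFF2, a transmembrane protein with follistatin domains (3.57). Raw counts were 3437, 2700 and 4249 in shEXOSC10 libraries and 145, 197 and 222 in control libraries, so both ends of the difference were well counted.

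LDB3, the other Z-disc member, lies on the plus strand of chromosome 10, from 88428206 to 88495825 (hg19, ENSG00000122367). It fell to 4.95, 5.80 and 4.10 CPM in shEXOSC10 libraries, against 18.3, 22.5 and 21.7 CPM in control libraries. The groups did not overlap, and the highest shEXOSC10 library stood well under the lowest control library. LDB3 fell by 76.5%, a log2 fold change of -2.09 (SE 0.15) with an adjusted p of 2.53e-19, and the call held under each of the 11 alternatives run, between -2.21 and -1.96. The members best known from muscle thus lay on opposite sides of their controls in the same libraries. In bulk RNA, fewer cells with a transcript and less of it per cell cannot be told apart.

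**Figure D1:**
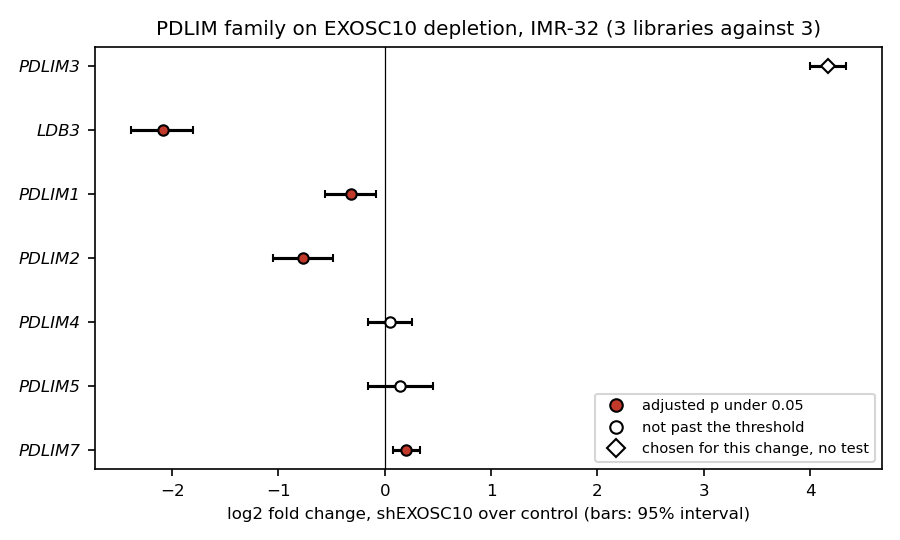
Log2 fold change of each PDLIM family gene, shEXOSC10 over control in IMR-32, with bars for the 95% interval; filled points passed an adjusted p of 0.05 and the diamond marks PDLIM3, which was chosen for this change. PDLIM3 stands at 4.17 and LDB3 at -2.09, while the other 5 members lie between -0.77 and 0.20. The bar of PDLIM3 comes from the values used to choose it and is not a test.

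Of the 6 members that were tested on EXOSC10 depletion, 1 rose, 3 fell and 2 did not pass the threshold, where 27.1% of all tested genes passed it, 13.5% higher and 13.7% lower. Groups did not overlap for 4 members including PDLIM3, against 38.4% of all tested genes. The family was found through this contrast, so nothing is read from its count beside these shares. PDLIM2 (chromosome 8, 22435792 to 22455538, plus strand, ENSG00000120913), which promotes the degradation of RELA and STAT4, fell by 41.5%, with 8.19, 7.98 and 10.1 CPM in shEXOSC10 libraries against 14.4, 15.1 and 15.6 CPM in control libraries (log2 fold change -0.77, SE 0.14, adjusted p = 1.34e-05). Its shEXOSC10 libraries all lay below its controls. A gene without a symbol, ENSG00000248235, shares 465 of the 7671 exon bases of PDLIM2 on the same strand, and reads there were counted for both genes in the SHEP table. That gene had 126 to 182 counts in shEXOSC10 and 195 to 221 in control libraries, against PDLIM2 counts of 132 to 265 in shEXOSC10 and 297 to 328 in control libraries, and it fell as well (log2 fold change -0.47, SE 0.16, adjusted p = 0.0241). How many reads the pair shares cannot be told from the counts, so PDLIM2 values are uncertain. PDLIM1 (chromosome 10, 96997329 to 97050781, minus strand, ENSG00000107438), an α-actinin binder of stress fibres, had 15.6, 18.6 and 14.2 CPM in shEXOSC10 libraries, against 19.5, 22.5 and 18.0 CPM in control libraries. These ranges overlapped, and its fall was small (log2 fold change -0.32, SE 0.12, adjusted p = 0.0429); the call was lost in 7 of 11 alternatives, with adjusted p of 0.055 and 0.255 without control replicates 1 and 2, 0.112 and 0.252 without shEXOSC10 replicates 1 and 3, 0.0668 with library totals, 0.0648 without the filter and 0.103 in DESeq2. Its pseudogenes PDLIM1P1 to PDLIM1P4 held 0 to 17 counts per library, so few reads were assigned to these copies.

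PDLIM7 (chromosome 5, 176910395 to 176924607, minus strand, ENSG00000196923), also called Enigma, binds the insulin receptor, RET and β-tropomyosin. It rose by 15.1%, with 116, 101 and 101 CPM in shEXOSC10 libraries against 99.6, 89.6 and 86.7 CPM in control libraries (log2 fold change 0.20, SE 0.06, adjusted p = 0.0126). The groups did not overlap, but the adjusted p was 0.0577 without control replicate 2, 0.0863 without control replicate 3 and 0.198 without shEXOSC10 replicate 1. PDLIM4 (chromosome 5, 131593364 to 131609147, plus strand, ENSG00000131435), which binds α-actinin and F-actin and lies inside P4HA2 on the other strand with no exon base in common, had 26.4, 21.0 and 25.3 CPM in shEXOSC10 libraries, against 23.8, 22.6 and 24.0 CPM in control libraries. PDLIM5 (chromosome 4, 95373037 to 95589377, plus strand, ENSG00000163110) had 9.02, 11.5 and 9.94 CPM in shEXOSC10 libraries, against 8.89, 10.1 and 8.52 CPM in control libraries. Both overlapped with their controls and did not pass the test, with 95% intervals of the log2 fold change from -0.16 to 0.26 for PDLIM4 and from -0.16 to 0.45 for PDLIM5.

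Per kb of exon, the family as a whole summed to between 59.9 and 65.0 CPM per kb in shEXOSC10 libraries, against 42.6 to 45.1 CPM per kb in control libraries. PDLIM3, which was chosen for its rise, is part of this sum, so the sum and every share of it depend on that choice. PDLIM3 made up 32.1 to 33.3% of this sum in shEXOSC10 libraries, against 1.94 to 3.07% in control libraries, and PDLIM7 made up 37.6 to 40.4% in shEXOSC10 libraries, against 45.3 to 50.2% in control libraries. LDB3 made up 1.02 to 1.43% in shEXOSC10 libraries, against 6.09 to 7.63% in control libraries. PDLIM3 was thus second only to PDLIM7 in shEXOSC10 libraries, whereas in control libraries it was below PDLIM7, PDLIM1, PDLIM4, LDB3 and PDLIM2. A lower share is not a lower level: PDLIM7 itself averaged 24 CPM per kb in shEXOSC10 and 20.9 CPM per kb in control libraries. These shares use the total exon length of each gene, not the length of the isoform in use.

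**Figure D2:**
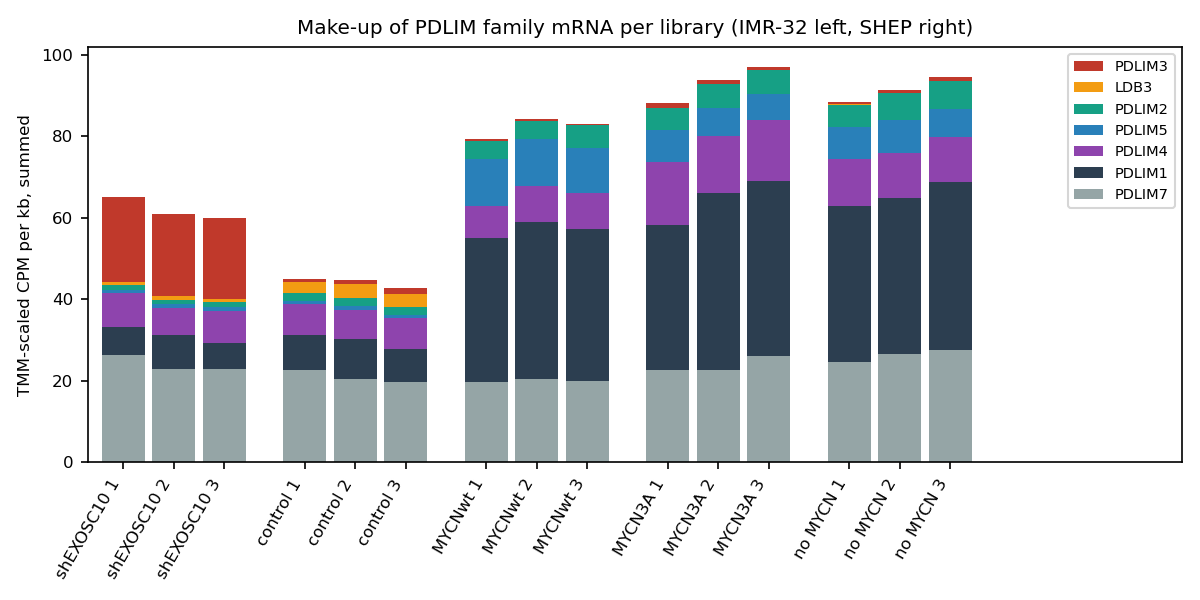
Sum of the 7 PDLIM family genes in CPM per kb of exon for each of the 15 libraries, stacked by gene. PDLIM3 fills 32.1 to 33.3% of the bar in the 3 shEXOSC10 libraries and at most 3.07% in every other library, and PDLIM1 is the largest part in SHEP.

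Skeletal muscle markers moved in both directions on EXOSC10 depletion. Of 8 markers, 4 were tested: MYH3 (17.4 against 12.3 mean CPM, shEXOSC10 against control) and TNNT1 (11.3 against 7.78) rose, CKM (4.64 against 7.78) fell, and MYOG (4.95 against 4.79) did not pass. The list summed to 37.4 to 39.5 CPM in shEXOSC10 libraries and 29.7 to 35.7 CPM in control libraries. The factors MYOD1, MYF5 and MYF6 were at 0 counts in all 6 IMR-32 libraries. Their relative MYOG was present in each, at 4.12 to 5.96 CPM in shEXOSC10 and 3.69 to 5.76 CPM in control libraries. Of 4 smooth muscle markers, SMTN rose (35.3 against 28.1 mean CPM), SYNM (1.00 against 0.387) did not pass, and MYH11 and LMOD1 had at most 0.333 CPM in any IMR-32 library. Of 8 adrenergic markers 7 fell and 1, TH, rose. Of 8 mesenchymal markers 6 were tested: VIM (336 against 243 mean CPM, shEXOSC10 against control) and COL1A1 (314 against 199) rose, and 2 fell, TWIST1 among them (43.5 against 90.3). The part of these markers in the changes of the PDLIM family was not tested.

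Among 13 tested genes that bind PDLIM proteins, 2 rose and 4 fell on EXOSC10 depletion (median log2 fold change -0.01, against 0.00 over all genes). Together 46.2% of this list passed the threshold, against 27.1% of all tested genes. INSR, the insulin receptor, averaged 93.8 CPM in shEXOSC10 and 79.5 CPM in control libraries (log2 fold change 0.24, adjusted p = 0.00266). RET, a receptor tyrosine kinase, averaged 5.16 CPM in shEXOSC10 and 3.38 CPM in control libraries (0.61, adjusted p = 0.0465). Both receptors are bound by PDLIM7, but the call of RET was lost in 7 of 11 alternatives: without control replicate 1 (adjusted p = 0.116) or 2 (0.194), without shEXOSC10 replicate 1 (0.195), 2 (0.0586) or 3 (0.0815), without the filter (0.0712) and in DESeq2 (0.0851). ID2, an inhibitor of basic helix-loop-helix factors that PDLIM5 holds in the cytoplasm, fell to 12.2 CPM in shEXOSC10 libraries, against 19.1 CPM in control libraries (-0.65, adjusted p = 2.94e-05). STK35, a kinase bound by PDLIM1, fell to 24.3 CPM in shEXOSC10 libraries, against 35.2 CPM in control libraries (-0.53, adjusted p = 8.12e-06).

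Of 26 tested LIM proteins of the cytoskeleton outside the family, 4 rose and 4 fell (median -0.04). TGFB1I1, a focal adhesion adaptor, rose to 21.2 CPM in shEXOSC10 libraries, against 13.9 CPM in control libraries (log2 fold change 0.61, adjusted p = 8.12e-05), and LIMCH1, an activator of non-muscle myosin, rose by 0.54 on the log2 scale (adjusted p = 0.000161). CSRP2, a muscle LIM protein relative, and NEBL, a nebulin relative of the Z-disc, fell by 0.63 and 0.71 on the log2 scale (adjusted p = 6.8e-06 and 6.46e-05). Of 9 tested sarcomere and Z-disc genes 3 rose and 2 fell (median -0.13). NEB, nebulin, rose at a very low level (1.14 CPM in shEXOSC10 and 0.241 CPM in control libraries on average, adjusted p = 0.00348). FLNC, the muscle filamin, fell to 173 CPM in shEXOSC10 libraries, against 247 CPM in control libraries (-0.51, adjusted p = 4.23e-13), and the actin bundler SYNPO2 fell by 0.61 on the log2 scale (adjusted p = 9.17e-05). Of 22 tested actin and contractile genes of the SRF pathway 4 rose and 9 fell (median -0.07). TPM1, a tropomyosin, rose to 131 CPM in shEXOSC10 libraries, against 73.0 CPM in control libraries (0.85, adjusted p = 3.98e-19), and CNN2, a calponin, rose by 0.75 on the log2 scale. The cytoplasmic actins fell: ACTB averaged 929 CPM in shEXOSC10 and 1390 CPM in control libraries (-0.58, adjusted p = 7.92e-21), and ACTG1 averaged 525 CPM in shEXOSC10 and 629 CPM in control libraries (-0.26, adjusted p = 6.19e-07). The threshold was passed by 30.8% of the LIM list, 55.6% of the sarcomere list and 59.1% of the SRF list, against 27.1% of all tested genes. As the lists were chosen with earlier results of these data known, nothing is read from these shares. The genes around PDLIM3 and LDB3 in function thus moved in both directions.

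In SHEP, 5 of 6 tested members differed between the libraries labelled MYCNwt and those labelled no MYCN: 1 rose and 4 fell, where 22.2% of all tested genes passed the threshold, 10.9% higher and 11.3% lower. Groups did not overlap for 4 members, against 37.5% of all tested genes. PDLIM5, which anchors protein kinase C and holds ID2 in the cytoplasm, had 128, 126 and 121 CPM with MYCNwt, against 86.2, 89.1 and 75.6 CPM with no MYCN. All MYCNwt libraries lay above all no MYCN libraries, by 49.5% on average (log2 fold change 0.58, SE 0.09, adjusted p = 8.58e-05). Its partner ID2 fell in the same comparison, to 8.92 CPM with MYCNwt, against 18.9 CPM with no MYCN (-1.08, SE 0.17, adjusted p = 6.25e-05).

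PDLIM3 fell to 3.94, 3.58 and 3.39 CPM with MYCNwt, against 5.58, 5.82 and 8.50 CPM with no MYCN (log2 fold change -0.86, SE 0.23, adjusted p = 0.00765). The groups did not overlap, but no MYCN replicate 3 was the highest library, and without it the difference was -0.65 with an adjusted p of 0.0752. Counts were low, from 48 to 58 with MYCNwt and from 78 to 118 with no MYCN. PDLIM7 fell to 86.2, 89.7 and 88.3 CPM with MYCNwt, against 109, 117 and 121 CPM with no MYCN (-0.39, SE 0.09, adjusted p = 0.00223). PDLIM4 fell to 24.6, 28.7 and 28.5 CPM with MYCNwt, against 36.7, 35.5 and 35.3 CPM with no MYCN (-0.39, SE 0.11, adjusted p = 0.0119). For both genes every MYCNwt library lay below every no MYCN library. PDLIM2 fell to 34.1, 34.7 and 42.7 CPM with MYCNwt, against 42.7, 51.5 and 52.3 CPM with no MYCN (-0.39, SE 0.12, adjusted p = 0.0163). The gene that shares exon bases with PDLIM2 fell beside it (-0.41, adjusted p = 0.032). The PDLIM2 groups met at 42.7 CPM, and the call was lost in 4 of 12 alternatives, with adjusted p of 0.0509 and 0.115 without MYCNwt replicates 1 and 2 and 0.0823 without no MYCN replicate 2 or 3. PDLIM1 did not pass (83.0 ± 3.21 CPM with MYCNwt and 87.9 ± 3.91 CPM with no MYCN; SD, n = 3 each; 95% interval of the log2 fold change -0.26 to 0.10).

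**Figure D3:**
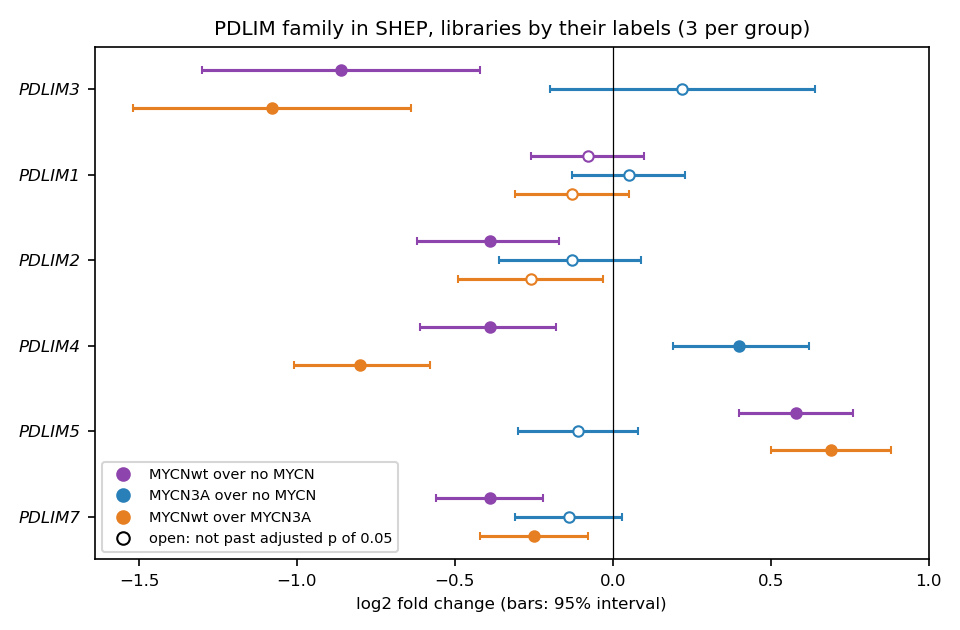
Log2 fold changes of the 6 tested members in the 3 SHEP comparisons, with bars for the 95% interval; filled points passed an adjusted p of 0.05. PDLIM5 lies right of 0 and PDLIM3 and PDLIM4 left of 0 in both comparisons with MYCNwt on top, and PDLIM4 is the only filled point for MYCN3A over no MYCN.

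Between the libraries labelled MYCN3A and those labelled no MYCN, 1 of 6 tested members passed the threshold, where 25.5% of all tested genes passed it, 12.7% higher and 12.8% lower; groups of 1 member did not overlap, against 41.3% of all tested genes. That member was PDLIM4, which rose to 49.0, 45.1 and 47.9 CPM with MYCN3A, against 36.7, 35.5 and 35.3 CPM with no MYCN (log2 fold change 0.40, SE 0.11, adjusted p = 0.0089). Its libraries did not overlap, and the call held in each of the 12 alternatives run. PDLIM3 had 8.65, 7.91 and 6.54 CPM with MYCN3A, against 5.58, 5.82 and 8.50 CPM with no MYCN, an overlap that left the test short of the threshold (0.22, 95% interval -0.20 to 0.64). For PDLIM5 (77.5 ± 8.37 against 83.6 ± 7.12 CPM), PDLIM1 (91.0 ± 9.52 against 87.9 ± 3.91), PDLIM2 (44.4 ± 1.59 against 48.8 ± 5.31) and PDLIM7 (105 ± 8.86 against 115 ± 6.28), each as MYCN3A against no MYCN (SD, n = 3 each), ranges overlapped and the log2 fold changes were -0.11, 0.05, -0.13 and -0.14. With scaling by library totals alone PDLIM7 passed as lower (-0.24, adjusted p = 0.0331) and the sign of PDLIM1 turned (-0.05). EXOSC10 was itself lower in libraries labelled MYCN3A (61.5 ± 4.02 CPM) than in those labelled no MYCN (81.1 ± 10.5 CPM, SD, n = 3 each, edgeR adjusted p = 0.00954). It averaged 93.2 CPM with MYCNwt, higher than with MYCN3A (log2 fold change 0.60, SE 0.11, edgeR adjusted p = 0.00025). Between MYCNwt and no MYCN it did not pass (0.20, edgeR adjusted p = 0.195).

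Between the forms, 4 of 6 tested members differed, 1 higher and 3 lower in the libraries labelled MYCNwt than in those labelled MYCN3A, where 30.3% of all tested genes passed the threshold, 15.8% higher and 14.5% lower; groups of 4 members did not overlap, against 40.4% of all tested genes. This comparison shares its libraries with both of the others, so the values stand side by side and are not separate evidence. PDLIM5 was higher with MYCNwt, at 128, 126 and 121 CPM, than with MYCN3A, at 86.7, 75.4 and 70.4 CPM (log2 fold change 0.69, SE 0.09, adjusted p = 1.31e-05). PDLIM4 was lower with MYCNwt, at 24.6, 28.7 and 28.5 CPM, than with MYCN3A, at 49.0, 45.1 and 47.9 CPM (-0.80, SE 0.11, adjusted p = 1.41e-05), and it lay above no MYCN with MYCN3A and below it with MYCNwt. PDLIM3 was lower with MYCNwt, at 3.94, 3.58 and 3.39 CPM, than with MYCN3A, at 8.65, 7.91 and 6.54 CPM (-1.08, SE 0.23, adjusted p = 0.00101). These differences of PDLIM3, PDLIM4 and PDLIM5 kept their call in each of the 12 alternatives run. PDLIM7 averaged 88.1 CPM with MYCNwt and 105 CPM with MYCN3A (-0.25, SE 0.09, adjusted p = 0.0339), but this call was lost in 8 of 12 alternatives, among them leaving out any 1 of the MYCNwt libraries (0.0761, 0.076 and 0.054 for replicates 1, 2 and 3), MYCN3A replicate 2 (0.0504) or MYCN3A replicate 3 (0.163). PDLIM2 (-0.26, adjusted p = 0.0984) and PDLIM1 (-0.13, adjusted p = 0.296) did not pass; PDLIM2 passed with the replicate number as a block (adjusted p = 0.039) and without MYCNwt replicate 3 (-0.37, adjusted p = 0.0238).

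The other markers gave these values beside the SHEP changes. Mesenchymal markers summed to 6430 to 6600 CPM with MYCNwt, 5580 to 5920 CPM with MYCN3A and 6440 to 6830 CPM with no MYCN, and all 8 were tested. Of these, 2 rose and 3 fell with MYCNwt against no MYCN, 0 rose and 4 fell with MYCN3A against no MYCN, and 5 were higher and 2 lower with MYCNwt than with MYCN3A. The 1 tested smooth muscle marker, SMTN, fell with MYCN3A (136 mean CPM) against no MYCN (160 mean CPM). Skeletal muscle markers summed to 22.2 to 30.9 CPM with MYCNwt, 38.3 to 53.8 CPM with MYCN3A and 45.2 to 53.1 CPM with no MYCN, and both tested markers, MYH3 and TNNT1, fell with MYCNwt against no MYCN. MYOD1 and MYF5 were at 0 counts in all 9 libraries, and the part of these markers in the PDLIM changes was not tested.

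LDB3 was at or near 0 in SHEP: no count in the 3 libraries labelled MYCNwt, 0, 2 and 0 counts with MYCN3A and 4, 0 and 0 counts with no MYCN. A count of 0 allows a level of up to 0.204 to 0.215 CPM in the MYCNwt libraries (3 counts per library, counting error only). This limit takes counts as independent, which they are not, so the true limit may be higher. No difference between SHEP groups was detectable for it at this depth.

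Of the 10 tested binding partners in SHEP, 2 rose and 3 fell with MYCNwt against no MYCN (median log2 fold change 0.00, as over all genes), 1 rose and 6 fell with MYCN3A against no MYCN (median -0.29, against -0.04 over all genes), and 5 were higher and 1 lower with MYCNwt than with MYCN3A (median 0.30, against 0.00). In that order 50%, 70% and 60% of the list passed the threshold, against 22.2%, 25.5% and 30.3% of all tested genes. Nothing is read from such list shares in SHEP either. TPM2, the β-tropomyosin that PDLIM7 binds, rose with both forms: it averaged 364 CPM with MYCNwt, 404 CPM with MYCN3A and 268 CPM with no MYCN (adjusted p = 0.00255 and 0.000263 against no MYCN). ACTN4, the non-muscle α-actinin that PDLIM1 binds, averaged 681 CPM with MYCNwt, 460 CPM with MYCN3A and 552 CPM with no MYCN, and was higher with MYCNwt than with either (0.57 over MYCN3A, adjusted p = 4.12e-05; 0.30 over no MYCN, adjusted p = 0.0129, but 0.0858 without no MYCN replicate 3, where 1 binding partner rose instead of 2). RELA, the NF-κB subunit that PDLIM2 acts on, was higher with MYCNwt than with MYCN3A (85.8 and 58.3 mean CPM, adjusted p = 9.98e-05). INSR fell to 4.70 CPM with MYCNwt, against 10.3 CPM with no MYCN (adjusted p = 0.000191), and ID2 was also lower with MYCNwt than with MYCN3A (8.92 and 16.1 mean CPM, adjusted p = 0.000793). With MYCN3A against no MYCN, PRKCA, a protein kinase C, fell by 0.51 and PALLD, an actin scaffold of stress fibres, by 0.52 on the log2 scale (adjusted p = 0.000874 and 0.00112).

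Of 26 tested LIM proteins outside the family, 3 rose and 5 fell with MYCNwt against no MYCN (median -0.04), 0 rose and 8 fell with MYCN3A against no MYCN (median -0.18), and 9 were higher and 5 lower with MYCNwt than with MYCN3A (median 0.15). The shares past the threshold were 30.8%, 30.8% and 53.8%, against 22.2%, 25.5% and 30.3% of all tested genes. TES, a focal adhesion LIM protein, fell to 4.61 CPM with MYCNwt, against 24.6 CPM with MYCN3A and 25.5 CPM with no MYCN (log2 fold change -2.47 against no MYCN, adjusted p = 1.32e-10; -2.42 against MYCN3A, adjusted p = 6.83e-10). FHL1, a LIM-only protein of muscle, fell to 17.1 CPM with MYCNwt, against 37.6 CPM with no MYCN (adjusted p = 1.88e-06). ZYX, zyxin, rose to 294 CPM with MYCNwt, against 209 CPM with MYCN3A and 226 CPM with no MYCN (adjusted p = 9.27e-05 and 0.00131), and ABLIM1, an actin-binding LIM protein, rose by 0.58 on the log2 scale over no MYCN (adjusted p = 0.00155). LMO7 was higher (0.65, adjusted p = 5.03e-05) and CRIP2 lower (-0.80, adjusted p = 0.000165) with MYCNwt than with MYCN3A. FBLIM1 and LASP1, both of focal adhesions, fell with MYCN3A against no MYCN by 0.64 and 0.38 on the log2 scale (adjusted p = 0.000528 and 0.00127).

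Of 7 tested sarcomere and Z-disc genes, 2 rose and 1 fell with MYCNwt against no MYCN (median 0.43), 1 rose and 1 fell with MYCN3A against no MYCN (median -0.14), and 3 were higher and 0 lower with MYCNwt than with MYCN3A (median 0.02). Past the threshold were 42.9%, 28.6% and 42.9% of this short list, against 22.2%, 25.5% and 30.3% of all tested genes. ANKRD1, a stretch-responsive ankyrin protein, averaged 385 CPM with MYCNwt, 212 CPM with MYCN3A and 233 CPM with no MYCN, and was higher with MYCNwt than with either (adjusted p = 3.62e-08 over MYCN3A and 3.8e-07 over no MYCN). NEXN, an F-actin binder of the Z-disc, rose to 54.7 CPM with MYCNwt and 54.4 CPM with MYCN3A, against 39.8 CPM with no MYCN (adjusted p = 0.00319 and 0.00389). SYNPO, synaptopodin, fell to 15.2 CPM with MYCNwt and 15 CPM with MYCN3A, against 28.1 CPM with no MYCN (adjusted p = 0.000126 and 0.000209). FLNC was higher with MYCNwt (314 CPM) than with MYCN3A (165 CPM; adjusted p = 0.0139, but 0.0571 with a replicate block).

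Of 23 tested actin and contractile genes of the SRF pathway, 5 rose and 4 fell with MYCNwt against no MYCN (median 0.14), 1 rose and 10 fell with MYCN3A against no MYCN (median -0.26), and 14 were higher and 3 lower with MYCNwt than with MYCN3A (median 0.39). These calls covered 39.1%, 47.8% and 73.9% of the list, against 22.2%, 25.5% and 30.3% of all tested genes. The 1 that rose with MYCN3A was SRF itself, at 131 CPM with MYCNwt, 110 CPM with MYCN3A and 88.9 CPM with no MYCN (adjusted p = 6.91e-05 and 0.0137 against no MYCN). Its rise with MYCN3A was lost with library totals (adjusted p = 0.0671), without MYCN3A replicate 3 (0.0814) and without no MYCN replicate 1 (0.0636). The 10 falls became 6 without no MYCN replicate 1 and 14 with library totals. The matricellular genes CCN1 and CCN2 were higher with MYCNwt than with MYCN3A, CCN1 at 416 CPM with MYCNwt and 219 CPM with MYCN3A (adjusted p = 1.34e-08) and CCN2 at 135 CPM with MYCNwt and 76.2 CPM with MYCN3A (adjusted p = 1.15e-06), and CCN1 was also above no MYCN (263 CPM, adjusted p = 1.39e-06). The smooth muscle gene TAGLN went the other way, at 96.9 CPM with MYCNwt, 125 CPM with MYCN3A and 147 CPM with no MYCN (adjusted p = 0.00701 and 9.93e-05 for MYCNwt against each; 0.0538 against MYCN3A without MYCN3A replicate 3). CNN1 was lower with MYCNwt than with either group at a very low level (0.187 CPM, against 1.25 CPM with MYCN3A and 1.44 CPM with no MYCN). VCL, vinculin, and MYH9, a non-muscle myosin, fell with MYCN3A against no MYCN by 0.61 and 0.57 on the log2 scale (adjusted p = 0.000362 and 0.00104). With scaling by library totals, 29.6% of all calls of MYCN3A against no MYCN were higher, against 49.7% with TMM, and 35.1% against 49.3% for MYCNwt against no MYCN, so the balance of rises and falls over lists in these comparisons depends on the scaling.

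**Figure D4:**
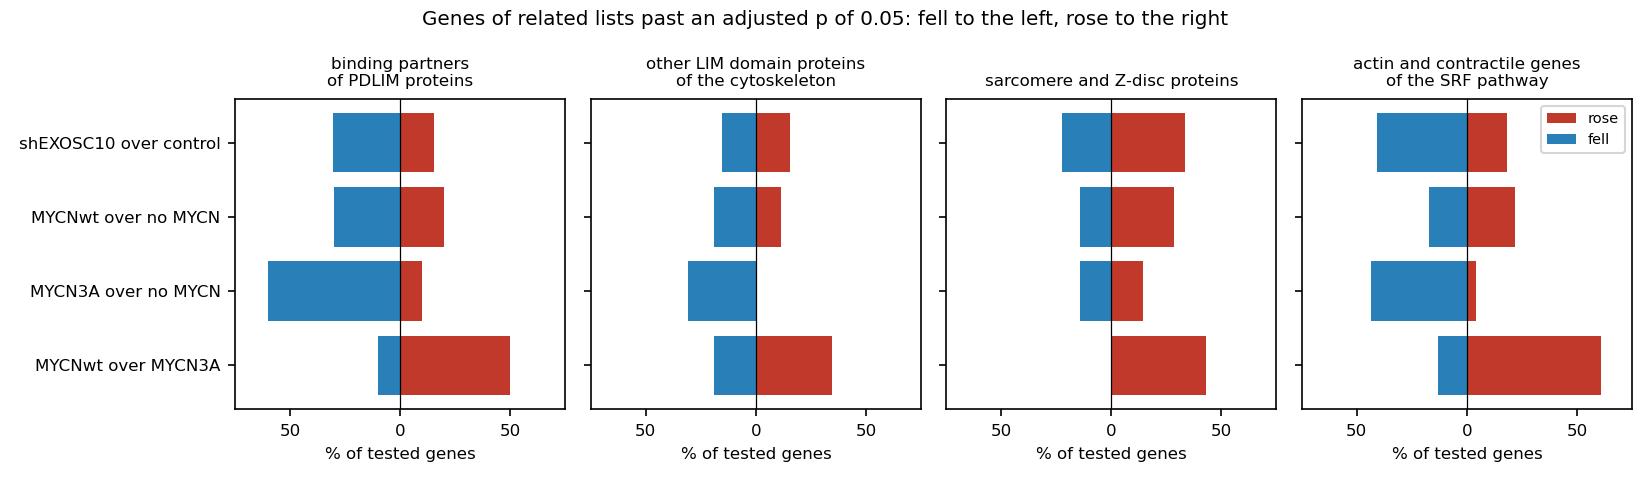
Share of the tested genes of each list that rose (right, red) or fell (left, blue) at an adjusted p under 0.05 in the 4 comparisons. From top to bottom 27.1%, 22.2%, 25.5% and 30.3% of all tested genes passed, both directions together. In the SRF list 14 of 23 genes were higher with MYCNwt than with MYCN3A, and 10 of 23 fell with MYCN3A against no MYCN (6 without no MYCN replicate 1).

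Across the 5 groups the members had different orders of level, which stand side by side as a description because the lines were counted in separate tables and the line cannot be told apart from batch. PDLIM3 averaged 20.3 ± 0.466 CPM per kb in shEXOSC10 and 1.13 ± 0.226 in control IMR-32, and 0.450 ± 0.0348 with MYCNwt, 0.953 ± 0.132 with MYCN3A and 0.821 ± 0.200 with no MYCN in SHEP (SD, n = 3 each). From high to low the order was shEXOSC10, control, MYCN3A, no MYCN and MYCNwt, and control, MYCN3A and no MYCN overlapped with their neighbours, whereas shEXOSC10 and MYCNwt overlapped with no other group. LDB3 averaged 0.741 ± 0.128 CPM per kb in shEXOSC10 and 3.12 ± 0.333 in control IMR-32, its highest group, and reached at most 0.0371 in any SHEP library. PDLIM1, PDLIM2 and PDLIM5 were higher in every SHEP library than in any IMR-32 library: PDLIM1 at 35.5 to 43.3 CPM per kb in SHEP and 6.34 to 10.0 in IMR-32, PDLIM2 at 4.45 to 6.81 in SHEP and 1.04 to 2.04 in IMR-32, and PDLIM5 at 6.33 to 11.5 in SHEP and 0.766 to 1.03 in IMR-32. PDLIM4 averaged 7.59 ± 0.897 CPM per kb in shEXOSC10 and 7.35 ± 0.244 in control IMR-32, and 8.54 ± 0.721 with MYCNwt, 14.8 ± 0.632 with MYCN3A and 11.2 ± 0.242 with no MYCN; MYCN3A and no MYCN stood apart at the top, and the other 3 groups overlapped with their neighbours in the order. Of the 7 members PDLIM7 had the smallest ratio between its highest and lowest group means, which ran from 20 ± 0.402 CPM per kb with MYCNwt to 26.2 ± 1.42 with no MYCN, and each neighbour in its order overlapped with the next. In SHEP, PDLIM1 made up 40.6 to 46.2% of the family sum, which was 79.3 to 97.1 CPM per kb.

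**Figure D5:**
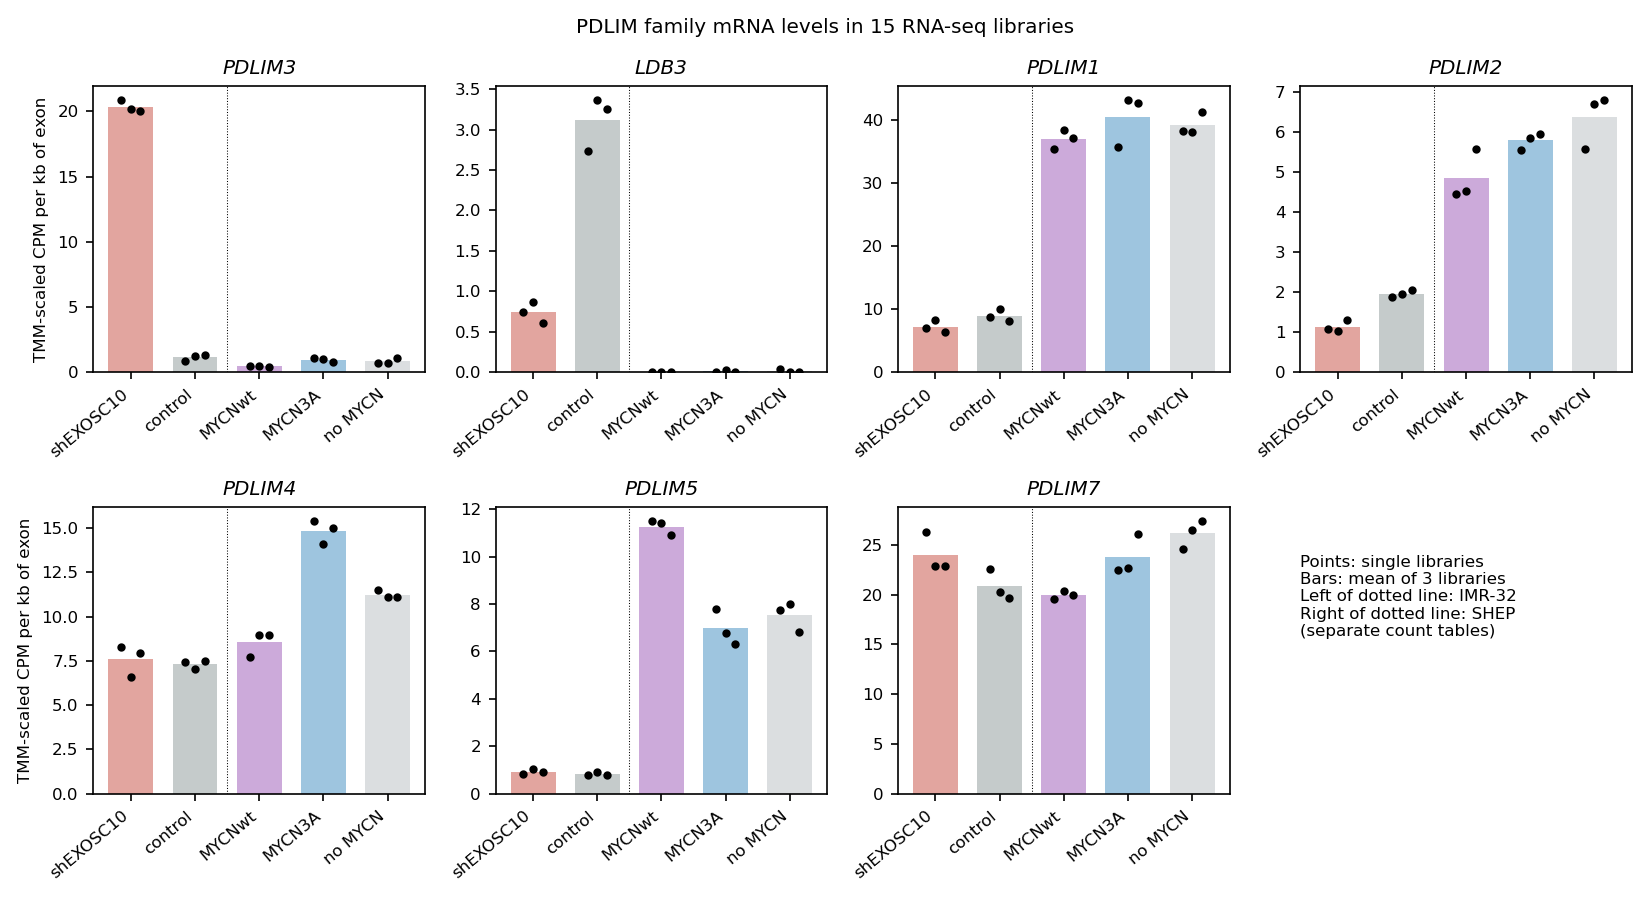
Level of each PDLIM family gene in CPM per kb of exon, with a point for each library and a bar for the mean of 3 libraries; IMR-32 groups are left of the dotted line and SHEP groups right of it, and the scale differs between panels. PDLIM3 reaches up to 20.9 in the shEXOSC10 libraries, and PDLIM1, PDLIM2 and PDLIM5 lie higher in SHEP than in IMR-32.

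The genes whose log2 CPM followed PDLIM3 most closely over the 15 libraries, among 15805 compared, were PYGB, the brain glycogen phosphorylase (Pearson r 0.973), DSCAM, a neuronal adhesion molecule (0.972), and FOLR1, a folate receptor (0.969). Each was highest in shEXOSC10 IMR-32: PYGB averaged 358 CPM in shEXOSC10 and 144 CPM in control libraries, and FOLR1 averaged 44.0 CPM in shEXOSC10 and 0.58 CPM in control libraries. DSCAM averaged 4.1 CPM in shEXOSC10 and 0.113 CPM in control libraries. Only in shEXOSC10 did DSCAM and FOLR1 reach the mean of 1 CPM required of a compared gene. These coefficients include the IMR-32 values used to choose PDLIM3. Within the 9 SHEP libraries, among 13153 genes, the closest to PDLIM3 were FAM177A1 (0.976), PLPP1, a lipid phosphate phosphatase (0.974), and CPE, carboxypeptidase E (0.965), each lowest with MYCNwt. For PDLIM5 over the 15 libraries the closest were FOXC2, a forkhead factor (0.998), FTSJ1, a tRNA methyltransferase, and LINC02864 (both 0.997), and for LDB3 they were PROM1, prominin 1 (0.996), SYT6, a synaptotagmin, and KCNJ6, a potassium channel (both 0.991). The libraries share line, depth and condition, so these are descriptions and the coefficients over 15 libraries largely rest on the gap between the lines or the groups.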

How the data were processed

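The 15 RNA-seq libraries with a column in the count tables were used; the other 74 samples, of other assays, were not analysed here. The deposited values are raw read counts per gene, without normalization. Per the submitters' processing notes, reads were mapped with STAR 2.7.10a to hg19 and counted with featureCounts 2.0.3; the SHEP file header gives strand setting 2, a minimum overlap of 10 bases, Ensembl release 87 and counting of a read for every gene it overlaps, and the settings of the IMR-32 table are not given in the sources used here. Among counts of 1 to 10, 65.5 to 77.1% were even, so counts are not independent molecules, and intervals and floors cover counting error only. The deposited length column, other than counts, gave the exon length per gene.

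Members and lists were chosen with earlier results of these data known. Genes were filtered with filterByExpr, scaled with TMM and tested with edgeR 4.0.16 (robust quasi-likelihood F test, R 4.3.3) in a fit per table, with group as the only term and Benjamini-Hochberg adjustment at 0.05 over all tested genes (17103 for the IMR-32 table, 14923 for the SHEP table). Standard errors are the absolute log2 fold change divided by the square root of F, and 95% intervals use the normal quantile of that SE. Log2 CPM used a prior count of 2. The procedure was tested on simulated counts. All members are named, and from each list the called genes with the 2 smallest p per direction (1 such gene is not reported here); genes near PDLIM3 and LDB3 were singled out later. Alternatives were library totals, RLE factors, no filter, DESeq2 1.42.0, a replicate block, leaving out each library and, for SHEP, only the groups compared. Replicate pairs differed by more than counting noise (chi-square per degree of freedom 3.96 to 17.9), so each library counted once.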

Additional observations from a re-analysis of the deposited data

How the results depend on the processing

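Over the alternatives the number of members called on EXOSC10 depletion stayed at 3 or 4 except when a library was left out, where it ranged from 2 to 4 around the 4 reported: it was 2 without control replicate 2 and 2 without shEXOSC10 replicate 1. For MYCNwt against no MYCN it ranged from 3 to 5 when a library was left out (3 without no MYCN replicate 3, where the calls of PDLIM3 and PDLIM2 were lost), for MYCN3A against no MYCN it was 1 throughout these, and between the forms it was 3 to 4. With library totals, MYCN3A against no MYCN called 2 members instead of 1, and the calls over all genes split into 1232 higher and 2928 lower, against 1893 and 1913; for MYCNwt against no MYCN they split into 1163 and 2147, against 1634 and 1681. The median of all genes for MYCN3A against no MYCN was -0.14 with library totals and -0.04 with TMM. Leaving out a library gave 3810 to 4386 called genes for EXOSC10 depletion, 2313 to 3458 for MYCNwt, 2166 to 3616 for MYCN3A (2166 without no MYCN replicate 1 and 2508 without replicate 2) and 3261 to 4901 between the forms. The sign turned for PDLIM4 on EXOSC10 depletion without shEXOSC10 replicate 1 (-0.01) and for PDLIM1 with MYCN3A under library totals (-0.05), neither of them a called value, and the cause was not tested. Same-numbered libraries correlated in their deviations at r of 0.03 to 0.04 in IMR-32 (-0.03 to -0.01 for different numbers) and -0.03 to 0.14 in SHEP (-0.13 to 0.06), so same numbers stood slightly higher in IMR-32, but not every pair passed 0.1 and the numbers were not taken as pairs; with a replicate block 5251, 4184, 4794 and 5414 genes and 4, 5, 1 and 5 members were called in the 4 comparisons in the order above. Among named list genes, every call but that of RET held in all alternatives on EXOSC10 depletion (15 of 16), as did 14 of 15, 9 of 10 and 11 of 13 in the SHEP comparisons in the same order. CNN1 is counted among the 11 between the forms, but it had a test result in only 11 of the 12 alternatives. With MYCN3A against no MYCN, sarcomere genes that rose were 2 instead of 1 without MYCN3A replicate 1 or 2. In the list of other LIM genes, 1 rose instead of 0 without MYCN3A replicate 1 and with only the groups compared, and 2 rose with a replicate block. The falls of that list ranged from 6 to 12 over the alternatives, against 8 in the main fit. The depth limits LDB3 in SHEP, with 0 to 4 counts per library.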

Other observations

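Of 9 tested genes within 500 kb of PDLIM3, 2 rose on EXOSC10 depletion and 0 fell, where 13.5% of all tested genes rose and 13.7% fell. The nearest, SORBS2, an adaptor of actin and the Z-disc, rose by 0.58 on the log2 scale (SE 0.14, adjusted p = 0.000699), and SLC25A4, the muscle and heart adenine nucleotide carrier, rose by 0.34 (SE 0.09, adjusted p = 0.00328); both are far under the 4.17 of PDLIM3. Of 11 tested genes within 500 kb of LDB3, 1 rose and 2 fell. Its nearest neighbour with a symbol, BMPR1A, a BMP receptor, did not pass (0.09, SE 0.08, adjusted p = 0.431), and SNCG, γ-synuclein, fell by 0.51 on the log2 scale (adjusted p = 9.15e-06). These genes were looked up after the values of PDLIM3 and LDB3 were known, and nothing is read from their counts beside the shares over all genes.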
